A study of Mus musculus with 4 samples.

Results

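The genes examined here encode the proteins of the cytosolic ribosome. They were chosen by name alone, as the rows whose symbol starts with Rpl or Rps followed by a number, plus Rplp0, Rplp1, Rplp2 and Rpsa, without rows named as pseudogenes, the Rps6k kinases or the symbols ending in l1. This rule took 89 of the 46603 genes counted in mouse liver, 52 of the large subunit (Rpl) and 37 of the small subunit (Rps). Of these, 84 are annotated as protein-coding and 5 as pseudogenes (Rpl37rt, Rpl6l, Rps3a2, Rps3a3 and Rps4l). Rps19bp1, which encodes a binding partner of a ribosomal protein and not a part of the ribosome, carries a symbol that the rule also takes.

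Total liver RNA came from 4 C57BL/6J mice, all labelled male, carrying HuR flox/flox, each fed for 4 weeks a Western diet (42% of its energy as fat, 0.1% cholesterol) with sugar water (23.1 g/L fructose and 18.9 g/L glucose), called WDSW. Control mice 1 and 2 had received AAV8-TBGP-GFP, and mice 3 and 4, labelled HuR hKO, had received AAV8-TBGP-Cre, in which the thyroxine-binding globulin promoter drives Cre in hepatocytes. The mice were age-matched, with no age given. The comparison asks what loss of HuR in hepatocytes, on this diet that brings on fatty liver, did to the levels of these mRNAs.

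A ribosome has a large subunit, which joins amino acids, and a small subunit, which reads the mRNA, and the proteins of both are made in matching amounts. Their mRNAs are short, abundant in every cell, and usually begin with a C followed by a run of pyrimidines, the terminal oligopyrimidine (TOP) tract, through which the mTORC1 pathway and the La-related protein Larp1 control their translation and stability. The liver, which exports large amounts of plasma protein, makes many ribosomes. HuR, encoded by Elavl1, binds U-rich and AU-rich stretches of mRNAs and is best known for stabilizing them.

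The gene for HuR itself, Elavl1, was higher and not lower in mice 3 and 4. Levels are given as CPM, counts scaled to a common library size by the TMM method, and that of Elavl1 was 28.3 and 25.9 CPM in control mice 1 and 2, and 37.7 and 34.4 CPM in mice 3 and 4. Both mice labelled HuR hKO were above both control mice, by 0.41 on the log2 scale (SE 0.135), with an adjusted p of 0.545 in the edgeR quasi-likelihood test. The paper, by contrast, reports significantly reduced HuR mRNA and protein in the liver of its HuR hKO mice on this diet. It also reports the deletion in hepatocytes by immunofluorescence. The counts are per gene, so the floxed part of Elavl1 could not be seen on its own. Every direction below is therefore that of the libraries labelled HuR hKO against the control libraries.

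Libraries held 13032095, 13615761, 13806773 and 19715577 counts in mice 1 to 4. TMM factors lay between 0.957 and 1.04, and every pair of libraries differed by more than sampling noise. Hepatocyte markers (8 of 8 present, among them Alb and Apoa1) summed to between 66892 and 76642 CPM with overlapping groups, so the tissue carried the markers of its label.

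The TOP tract is a known feature of this family that the rule did not use, though not every member shows it below. It can be looked for in the 30 bases around an annotated start, 15 before it and 15 from it on. RefSeq start sites on GRCm38.p6 were matched by symbol for 65 of the 89 genes. In the sequences below, written 5′ to 3′ on the gene's strand, capitals mark a C followed by at least 4 pyrimidines that begins within 5 bases of the start. The first group shows the tract at or next to the start, with genes of the large and the small subunit and genes whose levels are given below:
Rps6, chr4:86857353-86857382, minus strand: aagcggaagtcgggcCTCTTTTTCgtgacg
Rplp2, chr7:141447636-141447665, plus strand: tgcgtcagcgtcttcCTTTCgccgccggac
Rpl35, chr2:39005117-39005146, minus strand: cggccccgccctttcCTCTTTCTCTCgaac
Rpl28, chr7:4792950-4792979, plus strand: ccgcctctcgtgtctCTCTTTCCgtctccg
Rpl13a, chr7:45128731-45128760, minus strand: gaaaccctgcgacaagaCCTCCTCCTTTCC
Rps27l, chr9:66946071-66946100, plus strand: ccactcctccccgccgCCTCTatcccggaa

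The second group, with no such run at the annotated start, holds the gene with the highest fold change (Rpl41) and Rpl10, which was lower:
Rpl41, chr10:128549154-128549183, minus strand: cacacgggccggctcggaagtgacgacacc
Rpl10, chrX:74270801-74270830, plus strand: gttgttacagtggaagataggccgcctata

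Of the 63 protein-coding members with a start site in the table, 14 (22.2%) had the run exactly at the start and 29 (46.0%) within 5 bases of it. Among all 17492 protein-coding genes of the table the shares were 2.67% and 21.5%. In the promoter window of 300 bases (250 before the start and 50 after), the letters CCGGAAG, searched on both strands, were found for 41.3% of the members and 12.9% of protein-coding genes, and ATGGCG for 30.2% and 12.4%. Annotated starts can lie some bases off the true ones, and no match says only that these letters are not in this window.

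Ribosomal protein mRNAs were, as a family, slightly more abundant in the mice labelled HuR hKO, but by less than the 2 mice of each group differed. They were not more abundant when GC content and transcript length were both fitted as offsets. These offsets were fitted on the genes tested, members included, so they take out a shift that genes of like length share, whatever its source. Summed over the 89 genes, the level of the family was 14776 CPM in control mouse 1 and 16476 CPM in control mouse 2, and 16080 CPM in mouse 3 and 18139 CPM in mouse 4. The groups overlapped, since mouse 3 lay below control mouse 2. The means were 15626 ± 1202 CPM for control and 17110 ± 1456 CPM for HuR hKO (SD, n = 2), a ratio of 1.09. As a share of all counts the members took 1.51%, 1.62%, 1.67% and 1.74% in mice 1 to 4, and on this unscaled measure both mice labelled HuR hKO lay above both control mice. In bulk liver RNA, fewer cells of a type and less RNA per cell cannot be told apart.

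The shift was small and broad rather than carried by a few genes. The 86 genes that passed the filter on low counts had a median log2 fold change of 0.12, which became -0.01 when GC content and transcript length were fitted as offsets within each library. Leaving out 1 mouse moved it to 0.03 (without control mouse 1), 0.22 (without control mouse 2), 0.19 (without mouse 3) or 0.02 (without mouse 4). Of the 86 genes, 75 had a fitted level above control and 11 below, where 50.3% of all 13001 genes tested lay above control; with the offsets 40 did, and 49 without control mouse 1. The median was 0.10 for the 49 large subunit genes (42 above control) and 0.12 for the 37 small subunit genes (33 above control), against 0.00 for all genes tested. Large subunit genes summed to 1.51, 1.48, 1.46 and 1.45 times the small subunit genes in mice 1 to 4. Both mice labelled HuR hKO lay below both control mice, but this ratio moved by about as much between the control mice as between the group means.

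Mice of 1 group differed by more than the groups did. Control mouse 2 lay above control mouse 1 in 82 of 86 genes, with a median log2 difference of 0.19, and mouse 4 above mouse 3 in 80, with a median of 0.18. Mouse 3 lay above control mouse 2 in only 21, with a median of -0.05. The plot of deviations by mouse shows control mouse 1 at the bottom and mouse 4 at the top, with control mouse 2 and mouse 3 between them in the reverse order of their labels.

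**Figure D1:**
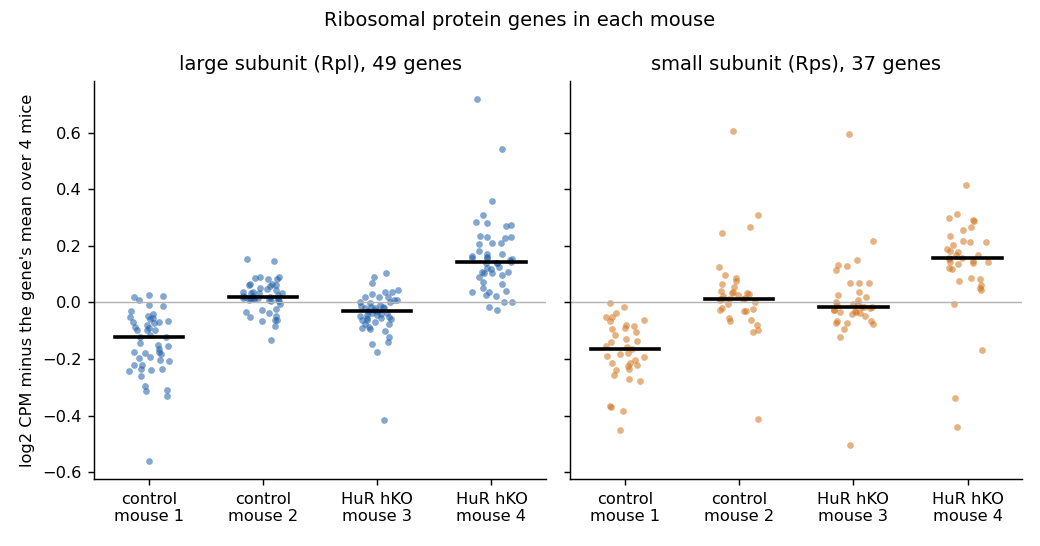
Deviation of each gene's log2 CPM from its mean over the 4 mice (y axis), by mouse (x axis), for 49 large and 37 small subunit genes. Points are genes and black bars are medians, which for the large subunit are -0.12, 0.02, -0.03 and 0.14 and for the small subunit -0.16, 0.01, -0.01 and 0.16 in mice 1 to 4.

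No ribosomal protein gene reached an adjusted p under 0.05 in the edgeR quasi-likelihood test (Benjamini-Hochberg over all genes tested), where 0.0154% of all genes were called higher and 0.00769% lower. The smallest adjusted p was 0.511. At an unadjusted p under 0.05, 5 genes were higher (5.81% of the 86, against 4.04% of all genes) and 0 were lower (against 3.39%). By the rule of a fold change of at least 1.8 with an unadjusted p under 0.05, 0 were called in either direction, where 1.21% of all genes were higher and 0.915% lower. DESeq2's Wald test and limma-voom also gave 0 members at an adjusted p under 0.05 and 5 higher at an unadjusted p under 0.05. Of all 13001 genes in either direction, DESeq2's Wald test called 85 at an adjusted and 575 at an unadjusted p under 0.05. For limma-voom these counts were 2 and 982. The fold changes behind these 5 calls depend on single mice. That of Rpl41 was 0.35 on the log2 scale without mouse 4 and 0.89 without control mouse 2. The smallest two-sided p that an exact permutation of 2 against 2 mice allows is 0.333.

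In 20 genes both mice labelled HuR hKO lay above both control mice (23.3%, against 19.3% of all genes tested), and in 4, Rpl10, Rpl29, Rpl4 and Rpl7, they lay below (4.65%, against 18.8%). The 4 lower genes are all of the large subunit, with log2 fold changes between -0.10 and -0.04 on TMM-scaled counts. In raw counts without scaling, where the median of all genes was 0.31 because mouse 4 had the largest library, Rpl10 and Rpl29 were at 0.27 and 0.22, below that median.

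**Figure D2:**
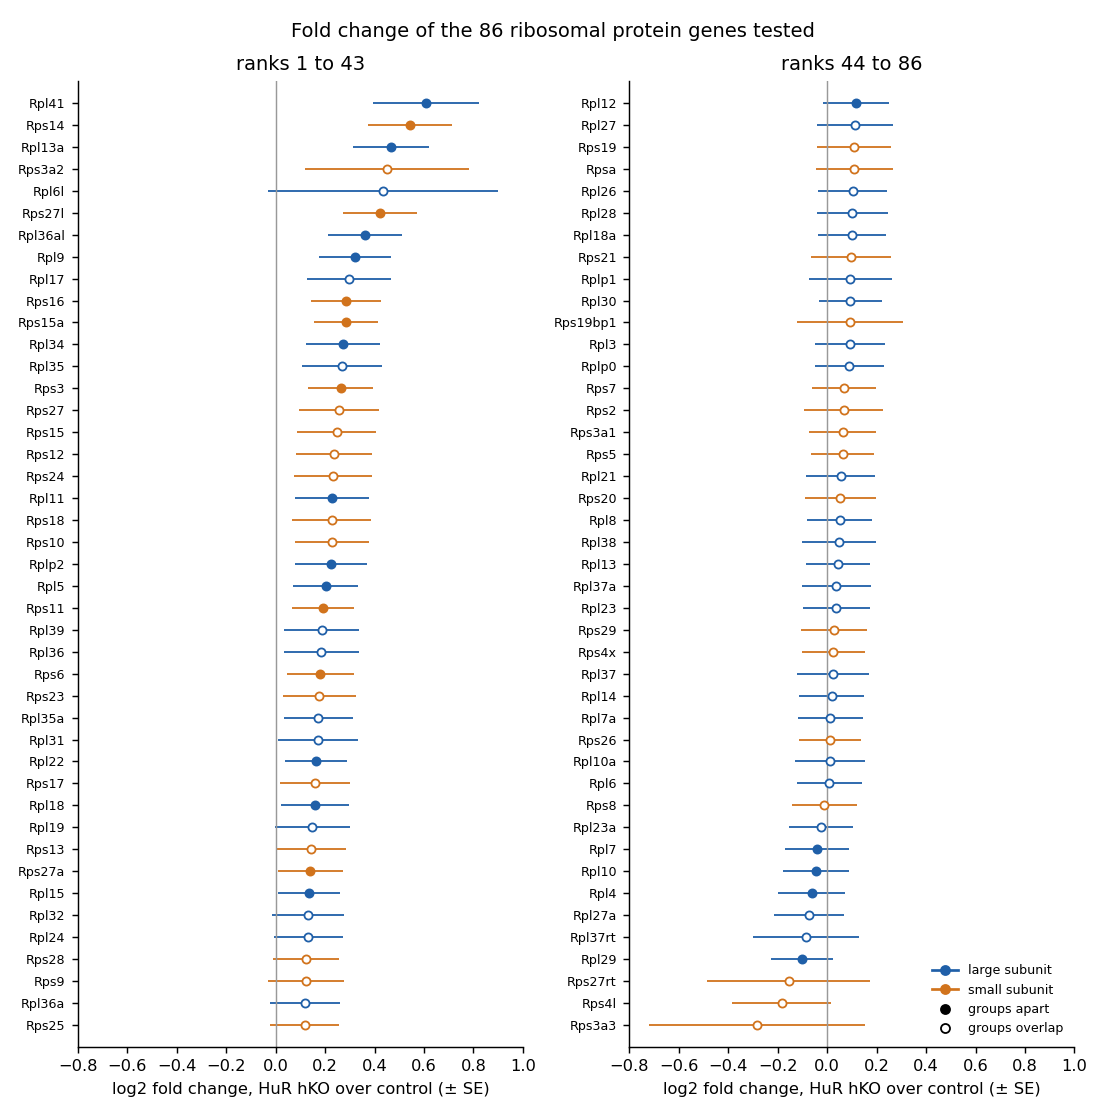
Log2 fold change of HuR hKO over control (x axis) with its SE (bars) for the 86 genes tested, ranked from highest to lowest in 2 columns. Filled points mark genes whose groups did not overlap; 75 points lie right of 0 (40 with the length and GC offsets), and the values run from -0.28 (Rps3a3) to 0.61 (Rpl41).

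Rpl41, at chr10:128548114-128549305 of GRCm38, encodes the smallest protein of the ribosome and had the highest fold change. Its level was 166 and 237 CPM in control mice 1 and 2, and 257 and 357 CPM in mice 3 and 4. The groups did not overlap, but control mouse 2 was nearer to mouse 3 than to control mouse 1. The log2 fold change was 0.61 (SE 0.215), with an edgeR unadjusted p of 0.0217 and an adjusted p of 0.574. Without mouse 4 it was 0.35, and without control mouse 2 it was 0.89.

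Rps14, a small subunit protein that helps form the platform where mRNA leaves, had 172 and 219 CPM in control mice and 257 and 312 CPM in mice 3 and 4. It was higher in both mice labelled HuR hKO, by a log2 fold change of 0.54 (SE 0.169; edgeR adjusted p = 0.511), the smallest p of the family. Rpl13a, of chromosome 7, encodes a surface protein of the large subunit that can also leave the ribosome to silence inflammatory mRNAs in myeloid cells, and its introns hold 4 snoRNA genes. Its level was 276 and 317 CPM in control mice and 374 and 445 CPM in mice 3 and 4, a log2 fold change of 0.47 (SE 0.154; edgeR adjusted p = 0.545). Its exons overlap the same-strand gene Gm45713, so its count depends on how shared reads were assigned.

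The other 2 of the 5 genes are paralogs. Rps27l, a p53 target that resembles Rps27, had 120 and 148 CPM in control mice and 169 and 189 CPM in mice 3 and 4, a log2 fold change of 0.42 (SE 0.15; edgeR adjusted p = 0.574). Rpl36al, an intron-poor relative of the X-linked Rpl36a, had 179 and 214 CPM in control mice and 237 and 269 CPM in mice 3 and 4, a log2 fold change of 0.36 (SE 0.149; edgeR adjusted p = 0.641). The groups of both genes lay apart. Leaving out 1 mouse moved the log2 fold changes to between 0.27 and 0.58 for Rps27l and between 0.22 and 0.50 for Rpl36al, lowest without control mouse 1 and highest without control mouse 2. The same ranges were 0.37 to 0.73 for Rps14, with the same mice, and 0.33 (without mouse 4) to 0.57 (without mouse 3) for Rpl13a. The relatives of Rps27l and Rpl36al were nearer to control, with log2 fold changes of 0.26 for Rps27 (SE 0.161) and 0.12 for Rpl36a (SE 0.14) and groups that overlapped. Rps27l and Rpl36al were singled out by their unadjusted p, and their difference from these relatives was not tested. The exons of Rpl36al overlap the same-strand gene Gm49383.

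**Figure D3:**
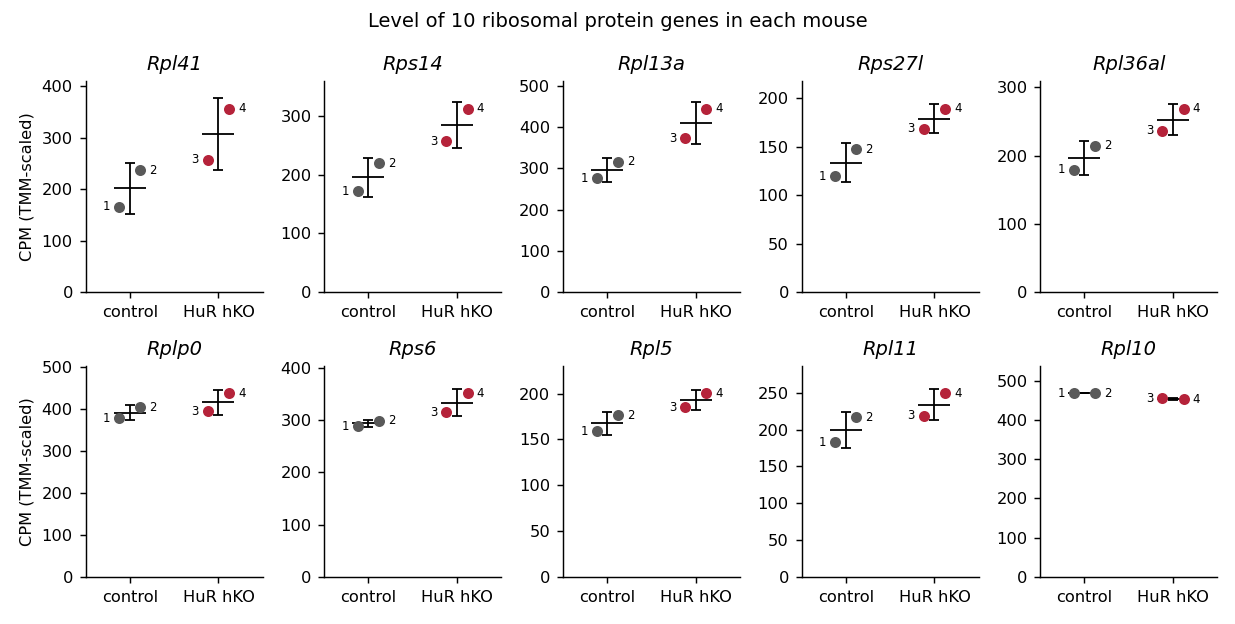
CPM (y axis, from 0) of 10 ribosomal protein genes in control mice 1 and 2 and in mice 3 and 4 labelled HuR hKO. Points are mice with their number, bars are mean ± SD (n = 2); the 5 genes of the top row have both HuR hKO mice above both control mice, as do Rps6, Rpl5 and Rpl11 below, while Rpl10 lies lower and Rplp0 overlaps.

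The stalk proteins, which draw translation factors to the large subunit, did not stand apart from the family. Rplp0, the base of the stalk and a common reference gene in RT-PCR, had 378 and 404 CPM in control mice and 394 and 437 CPM in mice 3 and 4, with overlapping groups. Rplp1 had 314 and 361 CPM in control mice and 314 and 407 CPM in mice 3 and 4. Rplp2 was the only one of the 3 whose groups lay apart, at 122 and 146 CPM against 147 and 167 CPM, where control mouse 2 and mouse 3 differed by less than 1 CPM.

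Rpl5 and Rpl11, which together with ribosomal RNA can bind Mdm2 and so stabilize p53, had groups that lay apart without passing a test. Rpl5 had 159 and 176 CPM in control mice and 185 and 200 CPM in mice 3 and 4 (log2 fold change 0.20, SE 0.133). Rpl11 had 183 and 217 CPM in control mice and 219 and 249 CPM in mice 3 and 4 (log2 fold change 0.23, SE 0.148). Without control mouse 1 the values were 0.12 for Rpl5 and 0.10 for Rpl11, and without control mouse 2 they were 0.28 and 0.36. A further Mdm2-binding protein, Rpl23, had a log2 fold change of 0.04 and overlapping groups.

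In the core of the large subunit, Rpl3, which reaches into the catalytic centre, had 225 and 232 CPM in control mice and 223 and 264 CPM in mice 3 and 4. Rpl10, one of the last proteins to join the subunit, differed little between mice, at 468 and 468 CPM in control mice and 455 and 453 CPM in mice 3 and 4. Its groups lay apart, lower, by a log2 fold change of only -0.04 (SE 0.134), a size within the error. Rpl22, an RNA-binding protein of the subunit's surface, had 99.4 and 102 CPM against 108 and 117 CPM, with groups apart and a log2 fold change of 0.16 (SE 0.126).

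Among small subunit proteins, Rps6, the substrate of the S6 kinases, had 289 and 299 CPM in control mice and 315 and 352 CPM in mice 3 and 4 (log2 fold change 0.18, SE 0.136), with groups apart. Rps3, at the entry of the mRNA channel, had 216 and 232 CPM against 265 and 271 CPM (log2 fold change 0.26, SE 0.13), also apart. Rps27a, made as a fusion with ubiquitin, had 150 and 158 CPM against 159 and 180 CPM, with control mouse 2 and mouse 3 close together.

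Rps2, the most abundant member, had 638 and 742 CPM in control mice and 670 and 774 CPM in mice 3 and 4, with overlapping groups. Overlap was also seen for Rpsa, known too as a laminin receptor, at 309 and 360 CPM against 329 and 393 CPM. The same held for Rps19, mutated in Diamond-Blackfan anaemia, at 112 and 139 CPM against 127 and 143 CPM. Rps4x, an X-linked gene, was flat at 214 and 211 CPM against 210 and 222 CPM, a log2 fold change of 0.02 (SE 0.128). Rps3a1 lay between 306 and 343 CPM in the 4 mice, with overlapping groups.

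The tissue-restricted paralogs Rpl10l, Rpl39l and Rpl3l were near or at 0 in liver. Rpl10l, a testis paralog of Rpl10, and Rpl39l had 0 counts in every library, which allows a level of up to between 0.152 and 0.23 CPM by counting error. Rpl3l, the paralog of heart and skeletal muscle, had 0, 1, 2 and 1 counts in mice 1 to 4. These 3 genes were not tested. Rps27rt, which is not placed among them, has 1 exon and the same coding length as Rps27 (252 bases). It lay between 2.72 and 4.77 CPM with overlapping groups, and how any reads shared with Rps27 were assigned is not given.

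The 5 rows annotated as pseudogenes lay at or under 26.1 CPM in every mouse, and their levels may hold reads of the parent genes, which near-identical copies can share. They lie near both ends of the ranking and have wide errors, from -0.28 for Rps3a3 (SE 0.436) and -0.18 for Rps4l (SE 0.199) to 0.45 for Rps3a2 (SE 0.332) and 0.43 for Rpl6l (SE 0.464). All 4 had overlapping groups. Rpl37rt lay between 5.78 and 7.01 CPM. Pseudogene rows outside the family took between 1.11 and 1.28 counts per 100 counts of the members.

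Compared per kilobase of transcript, the 80 protein-coding ribosomal protein genes tested had a median level of 255 CPM per kb, and the 10th and 90th percentiles were 110 and 392 CPM per kb. The highest were Rps2 (734 CPM per kb), Rplp1 (699), Rpl10 (577), Rpl41 (500) and Rps15 (460), the last a protein near the decoding site. Rps2 and Rplp1 changed places between mice, so their order does not exceed the spread. The lowest were Rps27rt at 10.6, Rps15a at 15.7 and Rps20 at 39.4 CPM per kb. For Rps15a and Rps20 the chosen transcripts are 5179 and 3706 bases long, against a median of 777.5 bases for the protein-coding members, so these low levels rest on the annotated length. Per kilobase of coding sequence, 4 of the 5 highest were the same genes, with Rps29 in place of Rps15. The order of the levels per kb was nearly the same in each mouse, with Spearman correlations over the 80 genes between 0.94 and 0.986 for pairs of mice that share the same gene lengths.

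**Figure D4:**
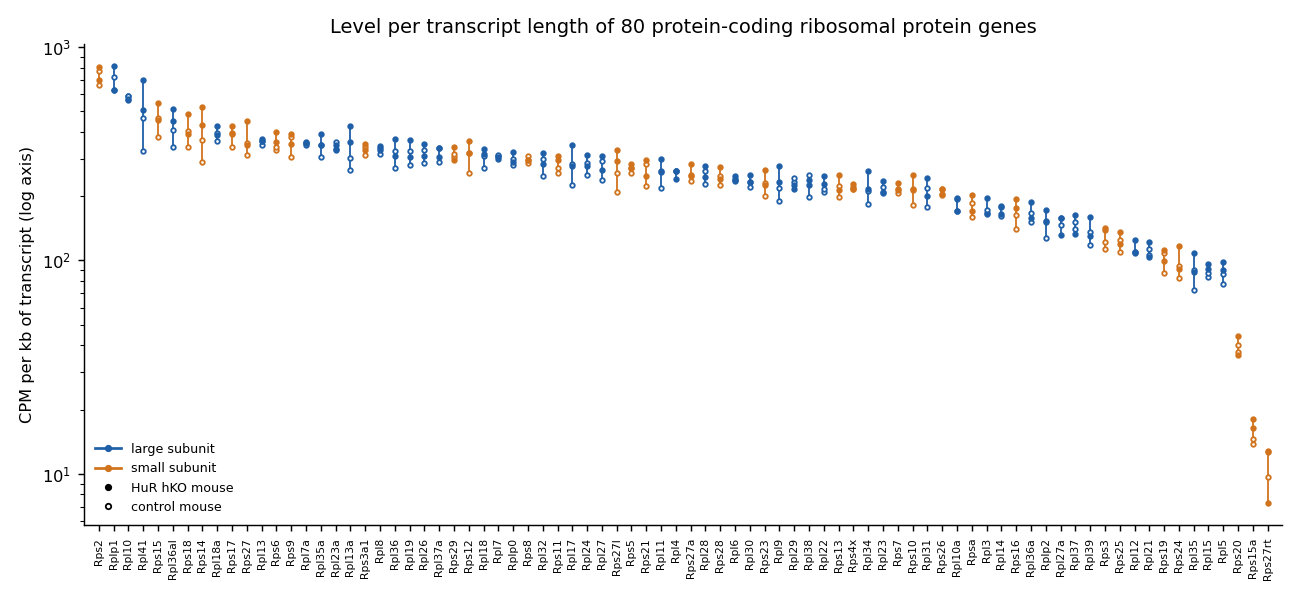
Level per kb of transcript (y axis, log scale) of 80 protein-coding ribosomal protein genes in order of their mean (x axis). Filled points are mice labelled HuR hKO, open points control mice, and lines join the lowest and the highest mouse; the 10th and 90th percentiles are 110 and 392 CPM per kb, and Rps20, Rps15a and Rps27rt stand below the others.

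Fold changes within the family followed gene structure only weakly. Over the 80 genes, Spearman correlations of the log2 fold change were -0.26 with coding length, -0.15 with transcript length, 0.04 with GC content and -0.15 with level, where all genes share the same 4 libraries. The 30 genes whose introns hold snoRNA genes had a median log2 fold change of 0.09, against 0.13 for the 50 without. The snoRNAs themselves guide modification of ribosomal RNA, and Gas5, a host gene with a TOP tract but no protein, had 58.9 and 66.4 CPM in control mice and 50.2 and 54.5 CPM in mice 3 and 4 (log2 fold change -0.26, SE 0.133), lower in both, and 0.06 in raw counts, where the median of all genes was 0.31.

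Other short transcripts moved between the mice as the ribosomal protein genes did. The transcripts of protein-coding members are short, with a median of 777.5 bases where the 15869 protein-coding genes with a count have 2785. Among other genes tested, the median log2 fold change was 0.14 for the 202 with transcripts under 500 bases, 0.14 for the 888 of 500 to 1000 bases, 0.07 for those of 1000 to 2000 bases, -0.01 for those of 2000 to 4000 bases and -0.06 for those over 4000 bases. In the 304 other genes under 1000 bases with a mean log2 CPM of at least 5, it was 0.17, with 235 higher and 69 lower. Control mouse 2 lay above control mouse 1 in 270 of these 304 genes, as it did in most ribosomal protein genes. The plot by transcript length class has the same order of the 4 mice in the members and in both short classes. With offsets for both features, the family's median was -0.01.

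**Figure D5:**
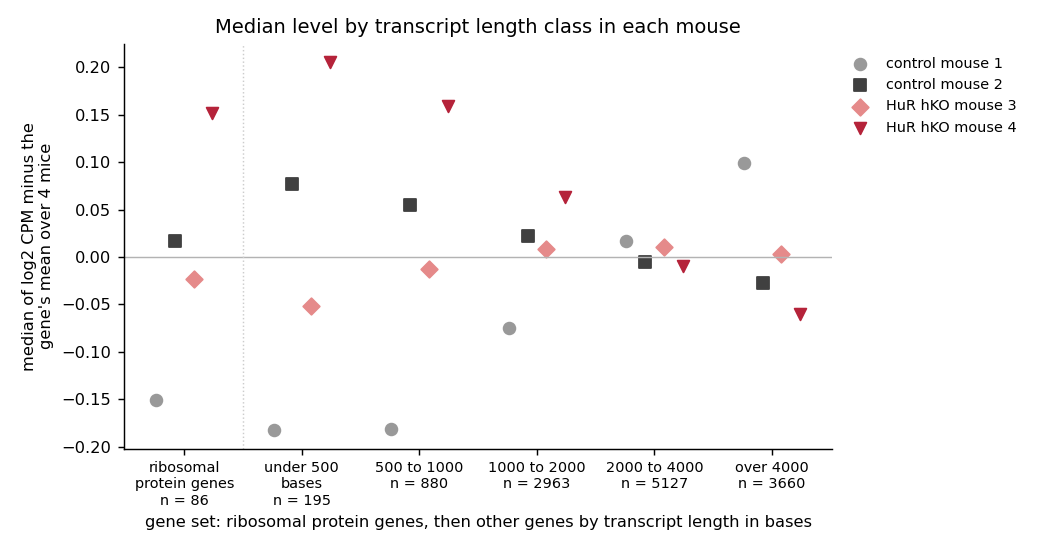
Median deviation of log2 CPM from each gene's mean over the 4 mice (y axis) for the ribosomal protein genes and for other genes in classes of transcript length (x axis), with n genes having a count in every mouse. Members had medians of -0.15, 0.02, -0.02 and 0.15 in mice 1 to 4, and genes of 500 to 1000 bases had -0.18, 0.06, -0.01 and 0.16, while genes over 4000 bases ran the other way.

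A few ribosomal proteins and relatives lie outside the naming rule. Fau, whose product is a ubiquitin-like protein fused to a small subunit protein, had 191 and 235 CPM in control mice and 234 and 297 CPM in mice 3 and 4, a log2 fold change of 0.31 (SE 0.17; 0.13 without mouse 4) with overlapping groups. Rack1, a scaffold on the small subunit, had 240 and 246 CPM against 248 and 260 CPM (log2 fold change 0.07, SE 0.129). Of Rpl7l1 and Rpl22l1, the first was 0.20 higher (SE 0.126) with groups apart and the second had groups that overlapped. None of these 4 genes had an unadjusted p under 0.05.

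Translation elongation and TOP mRNA genes, 22 of them reported, had a median log2 fold change of 0.03 (14 above control and 8 below), with 0 at an unadjusted p under 0.05. Eef1a1, the factor that brings aminoacyl-tRNA, lay between 3766 and 3860 CPM in the 4 mice, and Eef2, which moves the ribosome along, between 1420 and 1525 CPM. Pabpc1, the poly(A) binding protein, lay between 281 and 307 CPM, and Tpt1 between 826 and 935 CPM. These 4 genes had log2 fold changes between -0.06 and 0.04. Among 33 initiation factors the median was -0.01. Of these, Eif6, which keeps the large subunit from joining too early, was higher at an unadjusted p (56.0 and 63.2 CPM against 76.6 and 83.3 CPM; edgeR adjusted p = 0.511), and Eif4a2, a helicase, was lower (250 and 254 CPM against 193 and 181 CPM; edgeR adjusted p = 0.48).

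Ribosome assembly genes were more often below control than above. Of 45, 28 had a fitted level below control and 17 above, where 50.3% of all genes lay above, and 6 were lower at an unadjusted p under 0.05 (Nop56, Wdr12, Ltv1, Gnl3l, Mdn1 and Utp20) and 0 higher, where the shares of all genes were 3.39% and 4.04%. Their difference from the ribosomal protein genes was not tested, and their values are given without the length and GC offsets. Transcript length went with direction over other genes tested. Of those over 4000 bases, 1393 lay above control and 2270 below, and of those of 500 to 1000 bases 612 and 276. Whether length plays a part in this list was not tested. The median log2 fold change of the 45 assembly genes was -0.04, against 0.00 for all genes tested. Utp20, of the small subunit processome, had 17.8 and 15.2 CPM in control mice and 9.62 and 9.44 CPM in mice 3 and 4 (log2 fold change -0.79, SE 0.166; edgeR adjusted p = 0.217), and Gnl3l, a GTPase of the nucleolus, had 14.1 and 13.0 CPM against 8.01 and 4.67 CPM (log2 fold change -1.11, SE 0.256; edgeR adjusted p = 0.307). Both reached an adjusted p under 0.05 when genes with low counts were kept, and in no other setting with all 4 mice. With those genes kept, 161 of all 21432 genes did so, against 3 of 13001 with the filter. Of the nucleolar proteins Npm1, Ncl and Fbl, the log2 fold changes were 0.01, -0.03 and 0.11.

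The 12 genes of the RNA polymerase I machinery had a median log2 fold change of -0.09 with 0 at an unadjusted p under 0.05. The 20 genes of the mTORC1 pathway and of TOP mRNA control had a median of -0.08, and 1 of them, Eif4ebp1, a translational repressor that mTORC1 phosphorylates, was higher at an unadjusted p (43.5 and 45.1 CPM against 56.6 and 56.3 CPM; edgeR adjusted p = 0.574). Myc, a driver of ribosomal gene transcription, lay between 1.19 and 5.41 CPM with overlapping groups. The 9 snoRNA host genes and the 7 promoter-binding factors had medians of 0.00 and -0.13, with 0 at an unadjusted p under 0.05, and the 48 pseudogene rows tested had a median of 0.00, also with 0.

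In the list on p53 and ribosomal proteins, which contains Rpl5, Rpl11 and Rpl23, the p53 target genes Cdkn1a, Bax and Ccng1 were higher at an unadjusted p under 0.05, 3 of 10 genes where 4.04% of all genes were. Cdkn1a, a cell cycle inhibitor, had 5.49 and 5.74 CPM in control mice and 9.89 and 13.8 CPM in mice 3 and 4 (log2 fold change 1.08, SE 0.222; edgeR adjusted p = 0.207). The groups of Cdkn1a lay apart, as did those of the p53 target Rps27l above. Trp53 and Mdm2 had log2 fold changes of 0.06 and -0.04. The list was chosen with earlier results of these data known, and Rps27l is named for its own unadjusted p. A part of p53 in these differences was not tested.

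Mitochondrial ribosomal proteins, which form a separate ribosome but are likewise short mRNAs, also leaned upward. Of 79 tested, 67 had a fitted level above control and 12 below, with a median log2 fold change of 0.13, beside 0.12 in the cytosolic family. With the length and GC offsets the medians were 0.08 and -0.01, and the difference between the families was not tested. At an unadjusted p under 0.05, 8 were higher and 0 lower (of all genes 4.04% and 3.39%), and 0 reached an adjusted p under 0.05. Their summed level was 2502, 2837, 2798 and 3153 CPM in mice 1 to 4, with mouse 3 below control mouse 2 as in the cytosolic family.

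Markers of other liver cells differed between the mice beside these results. Erythroid markers (7 listed, 5 tested, all 5 higher, 3 at an unadjusted p under 0.05) summed to 363 and 450 CPM in control mice and 488 and 710 CPM in mice 3 and 4. Mouse 1 was lowest and mouse 4 highest, as in the ribosomal protein genes. Mouse 3 lay above control mouse 2, unlike in the summed ribosomal protein genes, so the groups of the erythroid sum lay apart. Kupffer cell and macrophage markers (8 of 8 tested, 5 higher) summed to 138 and 145 CPM against 164 and 155 CPM, and endothelial markers (7 of 7 tested, all higher) to 205 and 176 CPM against 234 and 209 CPM. Neutrophil markers (7 listed, 1 tested, Ly6g at 0) summed to 2.25 and 3.13 CPM in control mice and 2.16 and 1.48 CPM in mice 3 and 4. This sum was lower in mice 3 and 4 but rests on few counts, and control mouse 1 and mouse 3 were close. The 1 neutrophil gene tested had no unadjusted p under 0.05 in the edgeR test. Stellate cell, cholangiocyte, T and NK cell and B cell markers overlapped between the groups. Their part in the family's shift was not tested.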

How the data were processed

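Liver RNA of 4 mice was sequenced, and the authors deposited whole-number counts per Ensembl gene for each mouse, without normalization. RSEM and GRCm38 are named in the submitters' processing notes with no role; aligner, use of strand and treatment of reads matching several genes are not given in the sources used here, so counts of paralogs and overlapping genes are uncertain. Symbols covered 46005 of 46603 identifiers. Positions and lengths came from GENCODE M21 (GRCm38), using for each gene the transcript with the longest coding sequence, and start sites from RefSeq (GRCm38.p6).

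Groups were compared with the edgeR 4.0.16 quasi-likelihood test (R 4.3.3), with TMM factors and a minimum of 10 counts (total 15), adjusted by Benjamini-Hochberg over 13001 genes. CPM are on TMM-scaled library sizes. Means carry the SD of 2 mice. Alternatives were DESeq2 1.42.0, limma-voom 3.58.1, other scalings and filters, loess offsets (99.6% of genes had GC content and length), and leaving out each mouse. The code was tested on simulated counts. Members and lists were chosen with earlier results of these data known. Genes named were those with an unadjusted p under 0.05, the 5 highest and 5 lowest by fold change and by level per length, and set lists of members, paralogs and translation genes; list genes with an unadjusted p under 0.05, Rps27, Rpl28, Rpl35, Rpl36a, Rpl23, Rps29, Rps15a, Rps20, Rpl4, Rpl7, Trp53 and Mdm2 were named after their values were seen. Protein sequences were not used here, and 1 gene that the rule covers is not reported here. Counting limits (3 counts for a 0) cover counting error only.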

Additional observations from a re-analysis of the deposited data

How the results depend on the processing

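No paired analysis was possible because the control mice (1 and 2) and the mice labelled HuR hKO (3 and 4) share no number. No ribosomal protein gene reached an adjusted p under 0.05 in any of the settings. DESeq2's and upper quartile factors, library size alone, both filters, DESeq2's Wald test and limma-voom left the family's median above 0. They gave 72 to 75 members above control and 4 to 6 higher at an unadjusted p under 0.05. Over all genes, in either direction, calls at that p ran from 575 of 13001 (DESeq2's Wald test) to 1466 of 21432 (no filter).

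Without any scaling for library size the median was 0.44 for the family, 0.43 for the large and 0.45 for the small subunit. In that setting 2 members passed a fold change of 1.8 with an unadjusted p under 0.05. Of the pathway lists, 1 gene (Cdkn1a) reached an adjusted p under 0.05. Calls rose over all 13001 genes too, to 1397 at an unadjusted and 155 at an adjusted p under 0.05. With TMM scaling these counts were 966 and 3. With no filter on low counts 3 list genes reached an adjusted p under 0.05 (Cdkn1a, Gnl3l and Utp20), as did 161 of all 21432 genes. With GC and length offsets the medians were -0.0096 for the family and -0.019 for the large subunit. With these offsets 40 members lay above control and 1 was lower at an unadjusted p under 0.05. Of all 13001 genes, 1075 passed that p in either direction. Leaving out 1 mouse, the small subunit's median ran from 0.038 to 0.26, genes above control from 49 to 81, genes higher at an unadjusted p under 0.05 from 0 to 7, and genes also past a fold of 1.8 from 0 to 1.

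Of the 43 genes named by rule and tested, 17 kept their direction in every setting. Without scaling, log2 fold changes turned to 0.30 (Eef1a1), 0.25 (Eef2), 0.062 (Gas5), 0.29 (Ncl), 0.30 (Pabpc1), 0.27 (Rpl10), 0.29 (Rpl22l1), 0.22 (Rpl29), 0.24 (Rpl37rt), 0.19 (Rps27rt) and 0.10 (Rps4l). With the offsets they turned to -0.012 (Fbl), 0.083 (Ncl), 0.022 (Pabpc1), -0.00029 (Rack1), -0.00040 (Rplp0), -0.11 (Rplp1), -0.077 (Rps2), -0.028 (Rps3a1), -0.072 (Rps4x) and -0.063 (Tpt1). Leaving out 1 mouse in turn, log2 fold changes that changed sign ran from -1.37 to 0.79 for Myc, -0.078 to 0.0087 for Ncl, -0.055 to 0.065 for Npm1, -0.068 to 0.047 for Pabpc1, -0.35 to 0.31 for Rpl22l1, -0.032 to 0.19 for Rpl3, -0.20 to 0.032 for Rpl37rt, -0.26 to 0.85 for Rpl6l, -0.11 to 0.25 for Rplp1, -0.050 to 0.28 for Rps19, -0.051 to 0.18 for Rps2, -0.62 to 0.15 for Rps27rt, -0.0075 to 0.12 for Rps3a1, -0.71 to 0.29 for Rps3a3, -0.46 to 0.045 for Rps4l, -0.016 to 0.048 for Rps4x, -0.023 to 0.23 for Rpsa and -0.035 to 0.11 for Tpt1. The cause was not tested. Counting error limits the rows under 10 CPM, such as Rps3a3, Rpl6l and Rps27rt.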
